A study of Mus musculus with 7 samples.

Results

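The genes described are 9 B lineage genes, out of 53465 gene IDs counted in CD4+CD25+ cells sorted from mouse liver. They are Cd79a and Cd79b, the signalling chains of the B cell receptor; Ighm and Igkc, constant regions of its heavy and light chain; Ms4a1 and Cd22, B cell surface proteins; Ebf1 and Pax5, transcription factors of the lineage; and Jchain, a subunit of secreted antibody. All 9 were found by matching Ensembl IDs to mouse symbols, and all 9 passed the filter on low counts. The list was chosen with earlier results on these libraries known, namely that B and plasma cell genes differed between the 3 groups, so members were selected on the same levels that are given here. Their values and fold changes are therefore a description, and no p-value is given for any of them.

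The study asked what CD73, an enzyme on the cell surface that makes adenosine from AMP, does on regulatory T cells (Treg) in fatty liver. KO_MCD stands for CD73 KO mice on MCD, a methionine/choline-deficient diet (3 libraries). WT_MCD stands for wild type C57BL/6 mice on the same MCD (2 libraries), and WT_NCD for wild type mice on NCD, the normal control diet (2 libraries). Each diet was given for 4 weeks, and the cells of all groups were taken from liver by fluorescence-activated sorting of CD4+CD25+ cells, a gate that B cells and plasma cells should not pass. No knockout group on NCD was analysed here, so KO_MCD and WT_NCD differ in both diet and genotype. The labels do not give the deleted stretch of the CD73 gene, the strain background of the knockout, the age of the mice or whether replicates are separate animals. Any p-value therefore covers the spread of these libraries alone, and that spread may be technical.

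A B cell receptor is a membrane immunoglobulin paired with the CD79A and CD79B chains, which carry the signal into the cell. EBF1 and PAX5 switch on and hold the B cell program, including the genes of these chains. When a B cell becomes a plasma cell it loses PAX5 and most surface receptor and makes large amounts of secreted antibody, which the J chain joins into pentameric IgM or dimeric IgA. In liver, B cells are found among the resident lymphocytes.

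Libraries held 19731501 to 24398738 counts, and 14784 genes passed the filter on low counts. Levels are CPM, read counts relative to library size with TMM scaling, and a count of 0 allows a level of up to 0.129 to 0.158 CPM in a library (3 counts, counting error only). Nt5e, the gene of CD73, had 5.88, 14.5 and 6.43 CPM in KO_MCD, against 177 and 87.6 CPM in WT_MCD and 243 and 241 in WT_NCD. The T cell label was met by 10 of 10 T cell genes counted, among them Cd3e at 138, 269 and 169 CPM in KO_MCD, 189 and 93.5 CPM in WT_MCD, and 135 and 303 in WT_NCD. RNA of other cells was present throughout, with the macrophage gene Lyz2 between 845 and 26675 CPM. In such bulk libraries fewer cells of a type and less RNA per cell cannot be told apart.

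The receptor's signalling chains were highest in KO_MCD. Cd79a (ENSMUSG00000003379, chromosome 7, 24897381 to 24902197, plus strand, GRCm38) had 251, 210 and 79.7 CPM in KO_MCD, 37.2 and 72.6 CPM in WT_MCD, and 14.5 and 10.6 in WT_NCD. The groups formed 3 steps without overlap, although the lowest KO_MCD library, replicate 3, was close to the higher WT_MCD library. Their means were 180 ± 89.4 CPM in KO_MCD (SD, n = 3), 54.9 ± 25.0 CPM in WT_MCD and 12.6 ± 2.77 CPM in WT_NCD (both n = 2). The fitted log2 fold change of Cd79a was 1.71 (SE 0.56) in KO_MCD against WT_MCD, 2.13 (SE 0.60) in WT_MCD against WT_NCD and 3.84 (SE 0.63) in KO_MCD against WT_NCD. Each pair of these comparisons shares a group, so the 3 values are not independent of each other.

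Cd79b (ENSMUSG00000040592, chromosome 11, 106311341 to 106314762, minus strand), the partner chain, did not follow the same steps. It had 185, 172 and 90.2 CPM in KO_MCD, 55.7 and 83.5 CPM in WT_MCD, and 78.6 and 78.9 in WT_NCD. All 3 KO_MCD libraries were above the other 4, while the WT_NCD libraries lay between the WT_MCD ones. Its log2 fold change was 1.10 (SE 0.39) in KO_MCD against WT_MCD, -0.18 (SE 0.42) in WT_MCD against WT_NCD and 0.92 (SE 0.39) in KO_MCD against WT_NCD. Counts of Cd79b per count of Cd79a were 0.737, 0.819 and 1.13 in KO_MCD, 1.5 and 1.15 in WT_MCD, and 5.41 and 7.43 in WT_NCD. The chains are made to pair with each other, yet their counts stood in very different proportion in the WT_NCD libraries. Per kilobase of exon the mean levels were 124 CPM for Cd79a and 104 CPM for Cd79b in KO_MCD, against 8.62 CPM for Cd79a and 55.0 CPM for Cd79b in WT_NCD.

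**Figure D1:**
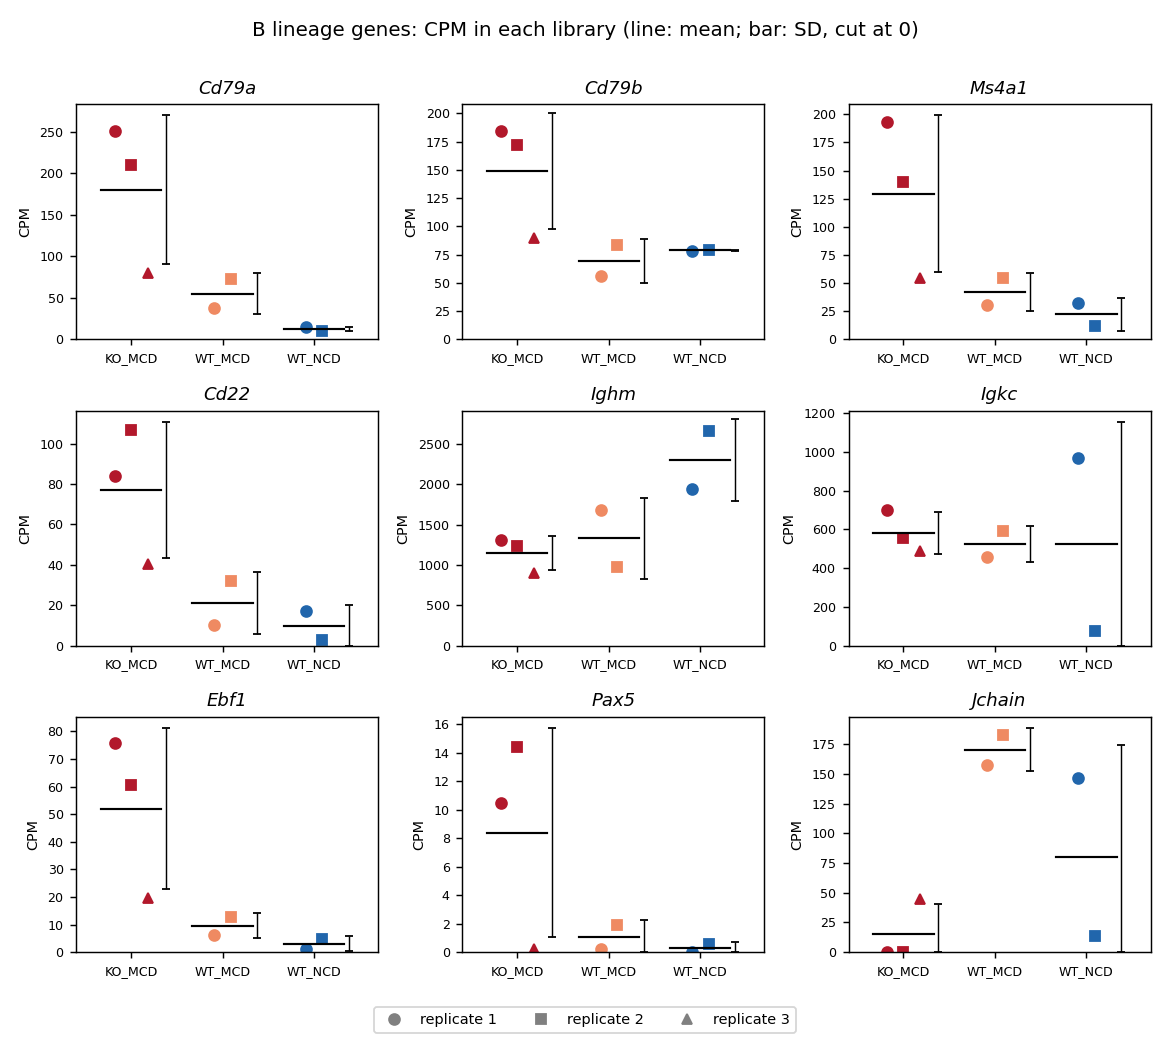
CPM of each of the 9 B lineage genes (vertical axis, 1 panel per gene, linear from 0) in the libraries of KO_MCD, WT_MCD and WT_NCD (horizontal axis). Points are libraries, lines are group means and bars are SD, cut at 0. Cd79a lies between 79.7 and 251 CPM in KO_MCD, above all other libraries, while Ighm lies highest in WT_NCD at 1943 and 2663 CPM.

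The surface proteins were likewise highest in KO_MCD. Ms4a1 (ENSMUSG00000024673, chromosome 19, 11249675 to 11266241, minus strand), which encodes CD20, had 193, 140 and 55.0 CPM in KO_MCD, 30.2 and 54.3 CPM in WT_MCD, and 32.5 and 11.8 in WT_NCD. KO_MCD replicate 3 and WT_MCD replicate 2 were almost level, and both wild type groups overlapped. The log2 fold change of Ms4a1 was 1.62 (SE 0.67) in KO_MCD against WT_MCD, 0.93 (SE 0.70) in WT_MCD against WT_NCD and 2.55 (SE 0.70) in KO_MCD against WT_NCD. Cd22 (ENSMUSG00000030577, chromosome 7, 30865402 to 30880342, minus strand), an inhibitory receptor that dampens receptor signals, had 84.2, 107 and 40.6 CPM in KO_MCD, 10.2 and 32.0 CPM in WT_MCD, and 17.0 and 2.83 in WT_NCD. The KO_MCD libraries were above all others, and again the wild type groups overlapped. Cd22 had a log2 fold change of 1.87 (SE 0.88) in KO_MCD against WT_MCD, 1.09 (SE 0.91) in WT_MCD against WT_NCD and 2.96 (SE 0.93) in KO_MCD against WT_NCD. Single libraries set the size of several of these values. With libraries left out in turn, the value of Cd22 ran from 1.31 to 2.91 in KO_MCD against WT_MCD, without WT_MCD replicate 1 and without WT_MCD replicate 2. It ran from 0.05 to 2.89 in WT_MCD against WT_NCD, without WT_MCD replicate 2 and without WT_NCD replicate 1. In KO_MCD against WT_NCD it was 4.76 without WT_NCD replicate 1 and 2.18 without WT_NCD replicate 2. The value of Ms4a1 was 1.84 in WT_MCD against WT_NCD and 3.46 in KO_MCD against WT_NCD when WT_NCD replicate 1 was left out. An exon of Gm29439 on the other strand overlaps Cd22, and without the strand setting its reads cannot be told apart from those of Cd22.

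Promoter sequence was available for 5 of the 9 genes, Cd79a, Cd22, Ebf1, Pax5 and Jchain, in a table of RefSeq genes on GRCm38.p6. The 250 bases before the RefSeq start of transcription are shown for Cd79a and Cd22, which stood highest in KO_MCD, and for Jchain, which had its lowest mean there. The RefSeq starts of Cd79a and Cd22 differ from the ends of the gene spans given above, which come from GENCODE: the Cd79a window reaches into the GENCODE gene, and the Cd22 window lies wholly inside it. Capitals mark matches, on either strand, to an E-box CAGGTG, an ETS core AGGAAG, an EBF core CCCNNGGG and an octamer ATGCAAAT, sites of factor families known from B cell promoters. The Cd79a window is chr7:24897247-24897496 on the plus strand, the Cd22 window chr7:30879029-30879278 on the minus strand, and the Jchain window chr5:88527898-88528147 on the minus strand, each read 5′ to 3′ on the gene's strand.
Cd79a: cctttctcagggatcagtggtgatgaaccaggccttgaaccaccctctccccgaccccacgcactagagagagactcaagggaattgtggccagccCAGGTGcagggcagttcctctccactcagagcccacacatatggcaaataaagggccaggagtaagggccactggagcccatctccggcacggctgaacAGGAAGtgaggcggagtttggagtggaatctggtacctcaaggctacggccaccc
Cd22: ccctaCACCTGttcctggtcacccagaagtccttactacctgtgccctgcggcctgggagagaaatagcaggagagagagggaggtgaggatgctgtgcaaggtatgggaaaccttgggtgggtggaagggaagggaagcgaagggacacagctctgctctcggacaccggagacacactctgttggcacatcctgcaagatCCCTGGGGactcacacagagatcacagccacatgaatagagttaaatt
Jchain: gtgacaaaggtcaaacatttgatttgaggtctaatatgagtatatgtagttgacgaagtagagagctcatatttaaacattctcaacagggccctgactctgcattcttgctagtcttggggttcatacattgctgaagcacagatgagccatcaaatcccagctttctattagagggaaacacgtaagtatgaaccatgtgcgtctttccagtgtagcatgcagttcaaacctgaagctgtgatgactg
The Cd79a window held an E-box 154 to 149 bases before the RefSeq start and an ETS core 55 to 50 bases before it. The Cd22 window held an E-box on the opposite strand, 245 to 240 bases before the RefSeq start, and an EBF core 48 to 41 bases before it. The windows of Jchain, Pax5 and Ebf1, which has 2 entries, held none of these letters. Pax5 and Ebf1, whose windows are not shown, also had their highest means in KO_MCD. The choice of windows shown thus gives no link between a match and a level. Of 32851 promoter windows of the same length, 17.2% held the E-box, 29.5% the ETS core, 11.8% the EBF core and 1.6% the octamer. No search letters overlapped in these windows, and a match is a description of the letters, not a measured site.

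The immunoglobulin constant regions Ighm and Igkc did not have the order of Cd79a. Ighm (ENSMUSG00000076617, chromosome 12, 113418558 to 113422730, minus strand), the constant region of the mu heavy chain of IgM, had 1305, 1231 and 903 CPM in KO_MCD, 1680 and 977 CPM in WT_MCD, and 1943 and 2663 in WT_NCD. The WT_NCD libraries were above all 5 MCD libraries, and KO_MCD overlapped WT_MCD. Its log2 fold change was -0.21 (SE 0.33) in KO_MCD against WT_MCD, -0.79 (SE 0.36) in WT_MCD against WT_NCD and -1.01 (SE 0.32) in KO_MCD against WT_NCD. Without WT_MCD replicate 1 the first of these was 0.27, so its sign rests on that library.

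Igkc (ENSMUSG00000076609, chromosome 6, 70726435 to 70726966, plus strand), the constant region of the kappa light chain, had 698, 558 and 487 CPM in KO_MCD, 460 and 591 CPM in WT_MCD, and 970 and 78.2 in WT_NCD. The highest and the lowest library were both WT_NCD, so no order of the groups could be read. The log2 fold change of Igkc was 0.15 (SE 0.82) in KO_MCD against WT_MCD, 0.00 (SE 0.90) in WT_MCD against WT_NCD and 0.15 (SE 0.82) in KO_MCD against WT_NCD. In WT_MCD against WT_NCD it was 2.75 without WT_NCD replicate 1 and -0.88 without WT_NCD replicate 2, and in KO_MCD against WT_NCD it was 2.89 and -0.73 with the same libraries left out. Counts of Igkc per count of Ighm were 0.535, 0.453 and 0.539 in KO_MCD, 0.273 and 0.605 in WT_MCD, and 0.499 and 0.0294 in WT_NCD. WT_NCD replicate 2 had the lowest Igkc and the highest Ighm of the 7 libraries.

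Set against the signalling chain Cd79a, the gap in Ighm was wider. Counts of Ighm per count of Cd79a were 5.20, 5.85 and 11.3 in KO_MCD, 45.1 and 13.5 in WT_MCD, and 134 and 251 in WT_NCD. The 3 groups did not overlap in this ratio, and WT_NCD was the highest. Cd79a, chosen with these contrasts known, did not overlap between the groups either, while Ighm overlapped between KO_MCD and WT_MCD. The closest libraries of KO_MCD and WT_MCD in the ratio were KO_MCD replicate 3 at 11.3 and WT_MCD replicate 2 at 13.5. Cd79a had 79.7 CPM in the former and 72.6 CPM in the latter, and Ighm 903 and 977 CPM. Both genes thus entered this narrow gap. Cd79b did not follow the steps of Cd79a, and a ratio of Ighm to Cd79b was not taken. Ighd, the constant region of the delta chain that mature naive B cells carry beside IgM, gave 2.92, 4.46 and 2.04 counts per count of Cd79a in KO_MCD, 2.20 and 2.31 in WT_MCD, and 2.25 and 2.78 in WT_NCD. That ratio stayed between 2.04 and 4.46 in all libraries, with KO_MCD overlapping both other groups. Ighd itself had 733, 937 and 162 CPM in KO_MCD, 82.0 and 168 CPM in WT_MCD, and 32.6 and 29.5 in WT_NCD, so KO_MCD replicate 3 fell within the WT_MCD range.

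The same contrast stood in the classes of heavy chain. Of all counts on heavy chain constant regions, Ighd took 35.9% in KO_MCD replicate 1 (95% Wilson interval 35.4 to 36.3), 43.0% in replicate 2 (42.6 to 43.4) and 14.8% in replicate 3 (14.4 to 15.3). In WT_MCD the Ighd share was 4.65% (4.44 to 4.87) and 12.6% (12.1 to 13.0), and in WT_NCD 1.45% (1.34 to 1.56) and 1.08% (1.0 to 1.17). The 3 groups did not overlap in this share, but KO_MCD replicate 3 at 14.8% lay close to WT_MCD replicate 2 at 12.6%. In WT_MCD replicate 2, Igha and Ighg2b also took part of the total. Ighm enters both this share and the ratio to Cd79a, so they are not separate measures. The intervals cover counting error only. Ighm took most of the rest, 63.9, 56.5 and 82.5% in KO_MCD, 95.3 and 73.0% in WT_MCD, and 86.2 and 97.9% in WT_NCD. Switched classes were uneven between libraries. Igha, the constant region of IgA, took 0.138, 0.212 and 2.65% in KO_MCD, 0.0343 and 11% in WT_MCD, and 1.08 and 0.958% in WT_NCD. Ighg2b, named after its values were seen, took 0.057, 0.158 and 0% in KO_MCD, 0 and 3.49% in WT_MCD, and 11.2 and 0% in WT_NCD. The kappa chain held 98.5, 98.7 and 98.6% of light chain constant region counts in KO_MCD, 99.6 and 98.3% in WT_MCD, and 99.8 and 99.7% in WT_NCD.

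**Figure D2:**
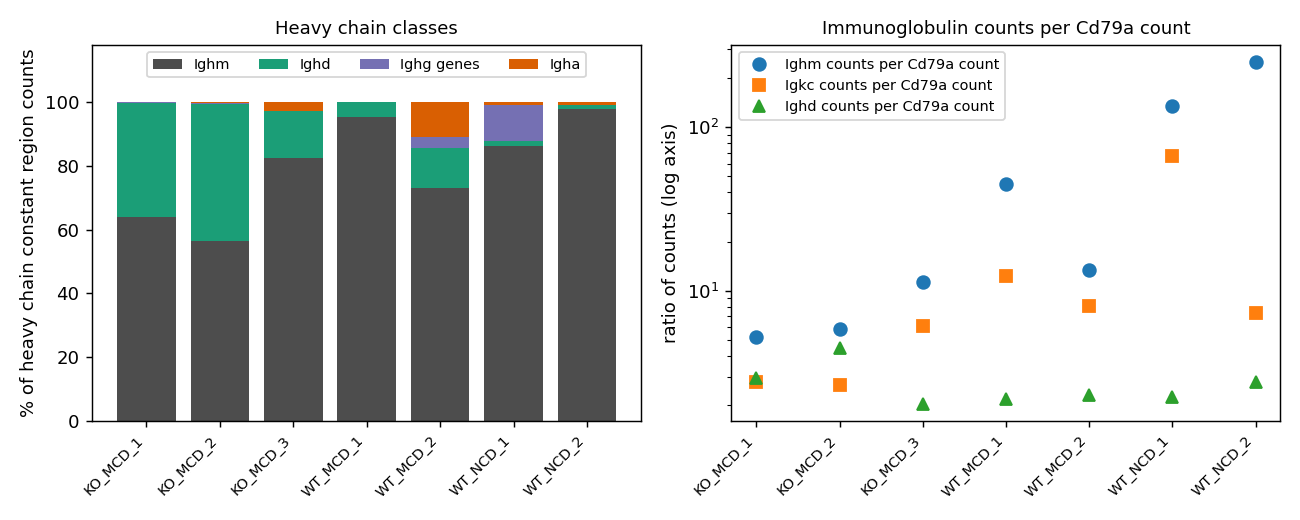
Left, the share of heavy chain constant region counts by class (vertical axis, percent) in each library (horizontal axis). Right, counts of immunoglobulin genes per count of Cd79a (log axis) in the same libraries. Ighd takes 14.8 to 43.0% in KO_MCD and at most 1.45% in WT_NCD, while Ighm per Cd79a runs the other way.

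Counts on heavy chain variable segments were few beside those on Ighm, and differed in spread between libraries. Per 1000 counts of Ighm there were 16.3, 13.1 and 15.8 counts over all Ighv segments in KO_MCD, 7.58 and 55.3 in WT_MCD, and 16.6 and 2.15 in WT_NCD. Of 113 annotated Ighv segments, 55, 44 and 23 had a count in KO_MCD, 14 and 51 in WT_MCD, and 11 and 9 in WT_NCD. The most counted segment took 16, 21.3 and 41.8% of Ighv counts in KO_MCD, 81.8 and 68.1% in WT_MCD, and 51.9 and 70.7% in WT_NCD, so the share in each KO_MCD library was below that in each other library. For kappa segments, 47, 50 and 41 of 100 had a count in KO_MCD, 19 and 49 in WT_MCD, and 16 and 10 in WT_NCD. Total counts differed as well, with 437, 356 and 299 counts on Ighv segments in KO_MCD, 274 and 1029 in WT_MCD, and 636 and 133 in WT_NCD, and their part in the number of segments seen was not tested. Variable segments are near-identical families among which counting can split reads, so single segments are uncertain. Constant regions can be transcribed without a joined variable segment, and which kind of transcript gave the Ighm counts was not tested.

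The lineage factors had their highest levels in KO_MCD replicates 1 and 2. Ebf1 (ENSMUSG00000057098, chromosome 11, 44617317 to 45008091, plus strand), which commits progenitors to the B lineage, had 75.9, 60.5 and 19.4 CPM in KO_MCD, 6.32 and 12.7 CPM in WT_MCD, and 1.16 and 4.90 in WT_NCD. As for Cd79a, the groups formed 3 steps without overlap, with KO_MCD replicate 3 the lowest of its group. Ebf1 had a log2 fold change of 2.45 (SE 0.86) in KO_MCD against WT_MCD, 1.64 (SE 0.88) in WT_MCD against WT_NCD and 4.09 (SE 0.94) in KO_MCD against WT_NCD. Both values against WT_NCD depended on single WT_NCD libraries. The one in WT_MCD against WT_NCD was 3.03 when replicate 2 of WT_NCD was left out and 0.96 when its replicate 1 was, and the one in KO_MCD against WT_NCD was 5.48 and 3.41. Without WT_MCD replicate 2, Ebf1 had 3.04 in KO_MCD against WT_MCD.

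Pax5 (ENSMUSG00000014030, chromosome 4, 44524757 to 44710487, minus strand), which holds B cell identity, had few counts outside KO_MCD replicates 1 and 2. It had 216, 318 and 5 counts in KO_MCD, 4 and 36 in WT_MCD, and 0 and 14 in WT_NCD. In CPM these were 10.5, 14.4 and 0.238 in KO_MCD, 0.186 and 1.89 in WT_MCD, and 0 and 0.601 in WT_NCD. KO_MCD replicates 1 and 2 stood above all other libraries, but replicate 3 lay among the wild type ones, so the groups overlapped in each comparison. The log2 fold change of Pax5 was 3.01 (SE 2.23) in KO_MCD against WT_MCD, 1.76 (SE 2.24) in WT_MCD against WT_NCD and 4.76 (SE 2.46) in KO_MCD against WT_NCD. When WT_MCD replicate 2 was left out, it was 5.45 in KO_MCD against WT_MCD and -0.69 in WT_MCD against WT_NCD, and when WT_MCD replicate 1 was left out it was 2.19 in KO_MCD against WT_MCD. Leaving out WT_NCD replicate 2 left no Pax5 count in that group, and against a floor of 3 counts Pax5 was then at least 55.8-fold higher in KO_MCD and at least 6.5-fold higher in WT_MCD. With WT_NCD replicate 1 left out, the value was 0.78 in WT_MCD against WT_NCD and 3.79 in KO_MCD against WT_NCD. Exons of 5730488B01Rik and Gm12462 on the other strand overlap Pax5.

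Jchain (ENSMUSG00000067149, chromosome 5, 88519809 to 88527891, minus strand), a gene of antibody-secreting cells, had its lowest mean in KO_MCD, where Cd79a had its highest. It was not counted in KO_MCD replicates 1 and 2, which allows up to 0.146 and 0.136 CPM, and had 44.7 CPM in KO_MCD replicate 3, against 158 and 183 CPM in WT_MCD and 147 and 13.8 in WT_NCD. All KO_MCD libraries were below both WT_MCD libraries, while KO_MCD replicate 3 lay between the WT_NCD ones. The fitted log2 fold change of Jchain was -3.52 (SE 2.26) in KO_MCD against WT_MCD, 1.09 (SE 2.42) in WT_MCD against WT_NCD and -2.43 (SE 2.19) in KO_MCD against WT_NCD. These values rest on single libraries. Without KO_MCD replicate 3 that group had no count, and Jchain was at least 2411-fold lower than in WT_MCD and at least 1064-fold lower than in WT_NCD, against a floor of 3 counts over the remaining libraries. The log2 fold change in KO_MCD against WT_NCD was 0.10 without WT_NCD replicate 1, and that in WT_MCD against WT_NCD was 3.62 without this library and 0.22 without WT_NCD replicate 2. Counts of Jchain per 1000 counts of Ighm were 0, 0 and 49.5 in KO_MCD, 93.8 and 187 in WT_MCD, and 75.5 and 5.19 in WT_NCD.

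**Figure D3:**
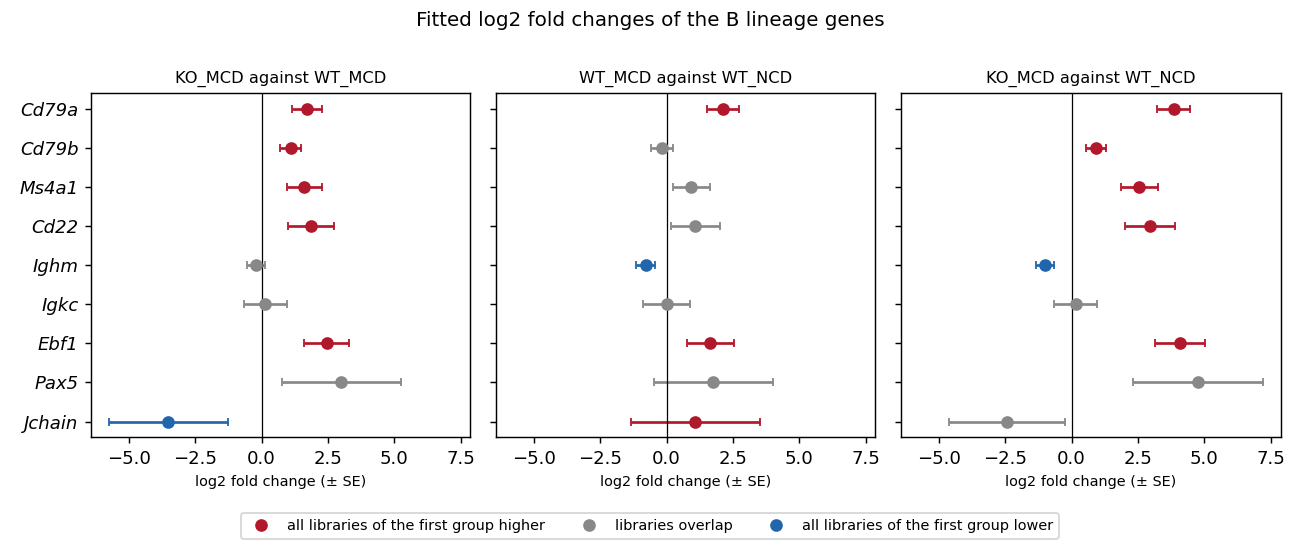
Fitted log2 fold changes (horizontal axis, bars ± SE) of the 9 genes (vertical axis), 1 panel for each comparison; red and blue points mark genes whose libraries were all higher or all lower in the group named first, and grey points those that overlapped. Ebf1 and Cd79a lie above 0 in all 3 panels, Ighm lies below 0 in all 3, and the bars of Pax5 and Jchain are the widest.

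Over all 9 genes, 7 had a fitted log2 fold change above 0 in KO_MCD against WT_MCD, where 47.9% of all tested genes did. The libraries of both groups did not overlap for 5 genes that were higher, Cd79a, Cd79b, Ms4a1, Cd22 and Ebf1, beside 8.37% of all tested genes, and for 1 that was lower, Jchain, beside 9.66%. In WT_MCD against WT_NCD, 7 of 9 were above 0, Igkc only just, where 52.3% of all genes were. Cd79a, Ebf1 and Jchain were higher without overlap, 3 genes beside 16.8% of all tested, and Ighm was lower without overlap, 1 gene beside 14.8%. In KO_MCD against WT_NCD, 7 of 9 were above 0, where 52.8% of all genes were, with Cd79a, Cd79b, Ms4a1, Cd22 and Ebf1 higher without overlap, 5 genes beside 13.4%, and Ighm lower, 1 gene beside 12.8%. Since the same contrasts chose the list, nothing is read from these counts. Their medians were 1.62, 1.09 and 2.55 in KO_MCD against WT_MCD, WT_MCD against WT_NCD and KO_MCD against WT_NCD, beside -0.03, 0.04 and 0.06 for all genes tested.

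With single libraries left out, the number of members higher without overlap was 5 to 7 in KO_MCD against WT_MCD, 3 to 7 in WT_MCD against WT_NCD and 5 to 6 in KO_MCD against WT_NCD. The highest count in KO_MCD against WT_MCD, 7, came when WT_MCD replicate 2 was left out, and that in WT_MCD against WT_NCD, also 7, when WT_MCD replicate 1 was. The number lower without overlap was 1 to 2, 1 to 2 and 1 to 3 in the same order of comparisons, with 3 in KO_MCD against WT_NCD without WT_NCD replicate 2. A group with a library left out overlaps another less readily, for any gene. The share of all tested genes was not taken for these smaller groups, so nothing is read from these counts either. Across the whole table edgeR called 0.0% of the 14784 genes at a Benjamini-Hochberg adjusted p of 0.05 in each comparison. At an unadjusted p of 0.05 it held 3.25% of genes in KO_MCD against WT_MCD, 6.0% in WT_MCD against WT_NCD and 8.97% in KO_MCD against WT_NCD. limma voom also called 0 genes in each, while DESeq2 called 35, 306 and 562.

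Among themselves, 6 of the genes (Cd79a, Cd79b, Ms4a1, Cd22, Ebf1 and Pax5) went together across the libraries. Their 15 pairwise Pearson correlations of log2 CPM over the 7 libraries ran from 0.643 to 0.967, with a median of 0.821. Ighm ran against these 6, with r from -0.772 to -0.33, and so did Jchain, with r from -0.935 to -0.594. Igkc lay between, with r from 0.0547 to 0.719. These are descriptions over 7 libraries in 3 groups that share scaling and sort, and the list was chosen on differences between the groups. By the same measure Cd79a had an r of 0.782 with Siglech, a surface protein of plasmacytoid dendritic cells, and of 0.612 with Lyz2. Its r was -0.186 with Cd3e and -0.659 with Cd4. Ighm had an r of -0.875 with Siglech and -0.754 with Lyz2, but of 0.514 with Cd3e and 0.667 with Cd4. Which cells gave the Ighm counts was not tested.

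Genes outside the lists were ranked by their correlation with the mean profile of Cd79a, Cd79b, Ms4a1 and Cd22 over the 7 libraries, among 10870 candidates. Fcmr, the receptor for the Fc part of IgM on B cells, came first with r = 0.977. It had 224, 179 and 96.9 CPM in KO_MCD, 26.9 and 73.1 CPM in WT_MCD, and 20.9 and 14.5 in WT_NCD. The next were Wdr4 (0.974), Elmsan1 (0.966), Dph1 (0.953), Hook1 (0.951), Chka (0.949), Cirbp (0.947) and Sowahc (0.946). Wdr4, Dph1, Hook1 and Chka overlap an exon of another gene. The rank is a description over 7 libraries and carries no test.

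Other B cell surface genes and coreceptors had mostly positive fitted fold changes. Of the 11 tested out of 12, 10 were above 0 in KO_MCD against WT_MCD, 11 in WT_MCD against WT_NCD and 11 in KO_MCD against WT_NCD, with medians of 1.48, 1.44 and 3.70, and 0 passed edgeR's adjusted threshold. The libraries did not overlap for 4 of the 11 in KO_MCD against WT_MCD, 7 in WT_MCD against WT_NCD and 8 in KO_MCD against WT_NCD, all higher, beside 8.37%, 16.8% and 13.4% of all tested genes. Fcer2a, the low-affinity IgE receptor CD23 of mature B cells, had 288, 305 and 33.3 CPM in KO_MCD, 27.0 and 44.1 CPM in WT_MCD, and 14.2 and 1.03 in WT_NCD. Only KO_MCD replicates 1 and 2 stood far above the rest. Cr2, the complement receptor CD21, had 28.1, 21.6 and 1.33 CPM in KO_MCD and 1.07 and 3.36 CPM in WT_MCD, and was not counted in WT_NCD. Against a floor of 3 counts over the WT_NCD group it was at least 244-fold higher in KO_MCD and at least 30.8-fold higher in WT_MCD. Cd72, another inhibitory coreceptor, had 172, 192 and 115 CPM in KO_MCD, 171 and 150 CPM in WT_MCD, and 220 and 91.0 in WT_NCD, and its groups overlapped throughout.

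Signalling genes that B cells share with other blood cells were split in KO_MCD against WT_MCD. Of 14 tested, 6 were above 0 in KO_MCD against WT_MCD, 12 in WT_MCD against WT_NCD and 12 in KO_MCD against WT_NCD, with medians of -0.09, 0.47 and 0.66. Inpp5d, the lipid phosphatase SHIP1, had 435, 527 and 490 CPM in KO_MCD, 555 and 522 CPM in WT_MCD, and 395 and 567 in WT_NCD. Ptpn6, the tyrosine phosphatase SHP1 that acts downstream of CD22, had 368, 374 and 287 CPM in KO_MCD, 251 and 529 CPM in WT_MCD, and 253 and 253 in WT_NCD. Both genes overlapped between KO_MCD and WT_MCD.

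Of 12 further B cell factors, 9 were above 0 in KO_MCD against WT_MCD, 8 in WT_MCD against WT_NCD and 8 in KO_MCD against WT_NCD, with medians of 0.73, 0.58 and 1.96. Irf8, which B cells share with dendritic cells and macrophages, had 471, 363 and 520 CPM in KO_MCD, 278 and 674 CPM in WT_MCD, and 92.1 and 20.9 in WT_NCD. Ikzf3, the lymphoid factor Aiolos, had 196, 305 and 216 CPM in KO_MCD, 323 and 224 CPM in WT_MCD, and 325 and 526 in WT_NCD. Irf8 thus stood lowest, and Ikzf3 highest, in WT_NCD. Of 12 genes of B cell survival, homing and antigen presentation, 10, 8 and 9 were above 0 in the same order of comparisons, with medians of 0.64, 0.76 and 1.31. Among them Cd83, an activation marker, had 1543, 2013 and 803 CPM in KO_MCD, 1209 and 708 CPM in WT_MCD, and 1288 and 255 in WT_NCD. Tnfrsf13b, the TACI receptor for B cell survival factors, had 253, 278 and 203 CPM in KO_MCD, 226 and 208 CPM in WT_MCD, and 207 and 279 in WT_NCD, with the groups overlapping.

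Plasma cell genes stood in mixed order. Of the 9 tested out of 12, 2 were above 0 in KO_MCD against WT_MCD, 7 in WT_MCD against WT_NCD and 6 in KO_MCD against WT_NCD, with medians of -0.34, 0.61 and 0.65. Those 2 were Mzb1 and Pou2af1, and Pou2af1 also stands in the list of further B cell factors. Mzb1, a chaperone of antibody assembly also made by plasmacytoid dendritic cells, had 25.5, 11.5 and 22.7 CPM in KO_MCD, 8.88 and 15.5 CPM in WT_MCD, and 0.961 and 0.816 in WT_NCD. Sdc1, the plasma cell surface marker CD138, had 32.1, 9.97 and 6.48 CPM in KO_MCD, 11.8 and 119 CPM in WT_MCD, and 12.8 and 0 in WT_NCD. Mzb1 was lowest in WT_NCD, and Sdc1 had no order of groups. Xbp1 and Prdm1, factors of secretion and of plasma cell fate that other cells also make, ran from 180 to 386 CPM and from 128 to 201 CPM over the 7 libraries. The summed level of the plasma cell list was 664 to 751 CPM in KO_MCD, 734 to 854 CPM in WT_MCD and 643 to 689 CPM in WT_NCD. Most of this sum was Xbp1 and Prdm1.

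**Figure D4:**
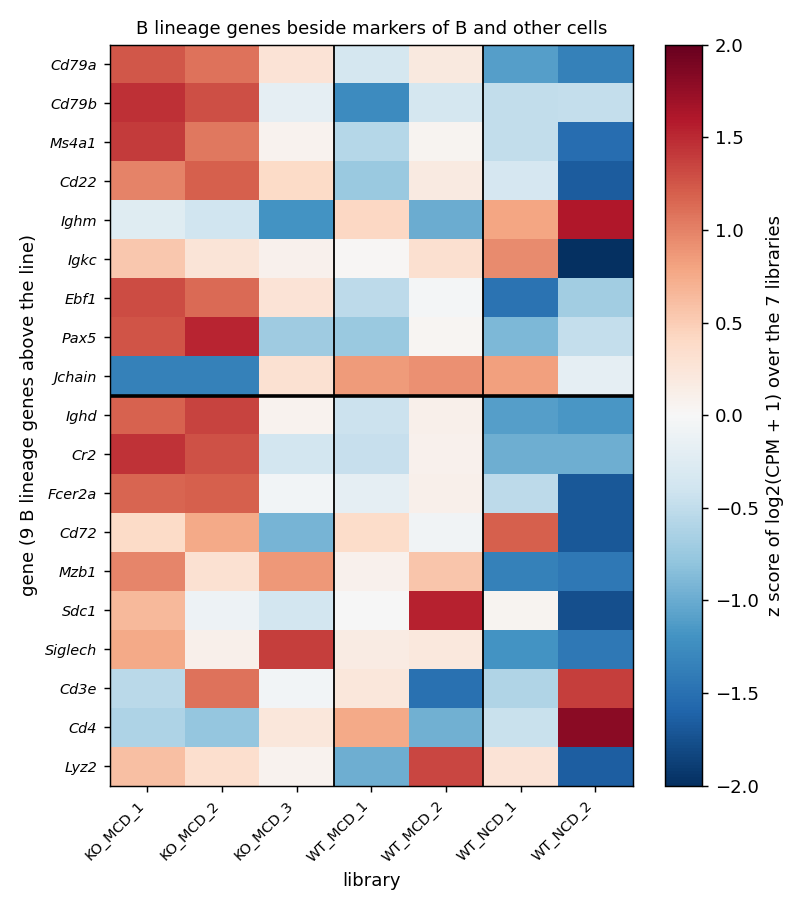
Colour gives the z score of log2(CPM + 1) over the 7 libraries for each gene (vertical axis, the 9 B lineage genes above the line and markers of B and other cells below it) in each library (horizontal axis). Cd79a, Ms4a1, Cd22 and Ebf1 are most strongly red (high) in KO_MCD replicates 1 and 2, and Siglech is high in KO_MCD replicate 3.

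Of the lists for other cells, that of plasmacytoid dendritic cells stood lowest in WT_NCD. All 12 of its genes were tested, of which 10, 11 and 11 were above 0 in KO_MCD against WT_MCD, WT_MCD against WT_NCD and KO_MCD against WT_NCD, and edgeR called 0 of them. The medians were 1.01, 2.73 and 3.42, beside 1.62, 1.09 and 2.55 for the 9 B lineage genes. Against WT_NCD the medians of this list were thus the higher ones. In the same order 3, 9 and 10 of the 12 were higher without overlap, beside 8.37%, 16.8% and 13.4% of all tested genes. In WT_MCD against WT_NCD 1 of the 12 genes was lower without overlap, beside 14.8%. Their summed level was 930 to 2075 CPM in KO_MCD, 793 to 1246 CPM in WT_MCD and 286 to 359 CPM in WT_NCD, and none was at 0 throughout. Siglech had 261, 113 and 589 CPM in KO_MCD, 122 and 129 CPM in WT_MCD, and 20.4 and 14.7 in WT_NCD. It was highest in KO_MCD replicate 3, the library of its group in which Cd79a, Ebf1 and Pax5 were lowest. Irf8, Spib and Ly6d stand in both this list and a B cell list.

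The summed T cell list was 4872 to 6141 CPM in KO_MCD, 3782 to 7799 CPM in WT_MCD and 6647 to 10189 CPM in WT_NCD. Of its 10 genes, 3 were above 0 in KO_MCD against WT_MCD, where 47.9% of all tested genes were. In WT_MCD against WT_NCD 1 was, beside 52.3%, and in KO_MCD against WT_NCD 1 was, beside 52.8%. Their medians were -0.04, -0.61 and -0.73 in that order, so both MCD groups stood below WT_NCD. Cd4 had 716, 665 and 1048 CPM in KO_MCD, 1324 and 610 CPM in WT_MCD, and 773 and 2137 in WT_NCD. Cd79a counts per count of Cd3e were 1.82, 0.782 and 0.471 in KO_MCD, 0.197 and 0.777 in WT_MCD, and 0.107 and 0.035 in WT_NCD. Relative to this T cell gene, KO_MCD replicate 3 fell within the WT_MCD range, so KO_MCD and WT_MCD overlapped, while WT_NCD stayed lowest. The macrophage list summed to 7283 to 12632 CPM in KO_MCD, 2363 to 32275 CPM in WT_MCD and 1149 to 10289 CPM in WT_NCD, with the groups overlapping. Most of this sum was Lyz2, with 26675 CPM in WT_MCD replicate 2. Of the 12 macrophage genes, 0 were above 0 in KO_MCD against WT_MCD, 10 in WT_MCD against WT_NCD and 5 in KO_MCD against WT_NCD. Their medians were -1.72, 1.01 and -0.71. In KO_MCD against WT_MCD 1 of them was lower without overlap, beside 9.66% of all tested genes.

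Early B cell genes other than Dntt were nearly absent. Of 8 listed, Rag1, Rag2, Vpreb2 and Igll1 had no count in any library, and the sum was 6.12 to 52.7 CPM in KO_MCD, 8.09 to 15.0 CPM in WT_MCD and 0 to 5.84 CPM in WT_NCD. Most of it was Dntt, which had 21.2, 5.71 and 52.3 CPM in KO_MCD, 6.69 and 13.1 CPM in WT_MCD, and 0 and 5.02 in WT_NCD. Of 14 genes of stroma and endothelium, 6 including Pdgfrb were at 0 in all libraries, and the list summed to 78.1 to 129 CPM in KO_MCD, 105 to 124 CPM in WT_MCD and 214 to 230 CPM in WT_NCD. The hepatocyte list summed to 0.971 to 7.29 CPM in KO_MCD, 7.21 to 56.5 CPM in WT_MCD and 12.3 to 28.3 CPM in WT_NCD. The part of these other cells in the levels of the 9 genes was not tested.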

How the data were processed

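RNA-seq libraries of CD4+CD25+ cells from mouse liver were analysed, 7 in all (KO_MCD 3, WT_MCD 2, WT_NCD 2). The authors deposited raw read counts per Ensembl gene, 1 column per library, and no column was left unmatched. The submitters' processing notes name HISAT2 2.1.0 and the build GRCm38. The labels and files do not state how reads were assigned to genes, nor the annotation and strand setting. Symbols, coordinates and exon lengths came from a GENCODE annotation of GRCm38, which held 53360 of the IDs and not the other 105.

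The counts were fitted with edgeR 4.0.16 in R 4.3.3 (quasi-likelihood test, TMM scaling, filterByExpr at 10 counts, a coefficient for each group over all libraries, prior count 0.125) and adjusted by Benjamini-Hochberg over 14784 genes. The common dispersion was 0.833. The standard error of a fold change was derived from the fold change and its F statistic. Folds against a group without counts use a floor of 3 counts over that group. Replicates always differed by more than sampling noise (chi-square divided by its degrees of freedom, 88.7 to 320.1). The scripts were tested on simulated data.

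Members and lists were chosen with earlier results of these data known. The rule named all 9 members, the 2 most abundant genes of each other list, 11 further markers, the 8 genes closest to the mean of Cd79a, Cd79b, Ms4a1 and Cd22, and Nt5e; 1 of the further markers is not reported here. Those of the lists not mentioned elsewhere are given with the other observations. Segments and classes outside the rule were named after their values were seen. Alternatives were other scalings, no low-count filter, DESeq2 1.42.0, limma voom (3.58.1), the replicate number as a block, both groups alone, immunoglobulin genes left out of the totals, and each library left out. A crossed pairing was added after seeing the data.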

Additional observations from a re-analysis of the deposited data

How the results depend on the processing

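The edgeR count of called genes was 0 in all 3 comparisons under the other scalings, limma voom, both groups alone, immunoglobulin genes left out and each library left out (0 to 0). Without a low-count filter it was 1 in KO_MCD against WT_MCD, 54 in WT_MCD against WT_NCD and 140 in KO_MCD against WT_NCD, and with DESeq2 it was 35, 306 and 562 in that order. The cause was not tested. The median log2 fold change of the 9 genes, with each library left out in turn, was 1.21 to 2.1 in KO_MCD against WT_MCD, 0.047 to 1.84 in WT_MCD against WT_NCD and 2.0 to 3.41 in KO_MCD against WT_NCD. Of 408 fold changes of single members under alternatives, 390 stayed within 1 SD and 18 moved further. That SD is of the gene's own log2 CPM within groups, 0.378 for Ighm to 3.82 for Jchain, so for Pax5 (2.57) and Jchain it is a wide limit.

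Replicate numbers recur across groups, but the labels give no pairing, and the deviations of same-numbered libraries had correlations from -0.102 to 0.03. With the replicate number as a block, 0 genes were called in each comparison and the median of the members was 1.90, 1.15 and 2.97. A crossed pairing in WT_MCD against WT_NCD called 0 genes, with 665 at an unadjusted p under 0.05.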

Other observations

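The most abundant genes of the lists for other cells, not given above, had these levels. Cd2, an adhesion receptor of T cells, had 1543, 1737 and 1994 CPM in KO_MCD, 2486 and 1172 CPM in WT_MCD, and 2354 and 2908 in WT_NCD, where it was above all KO_MCD libraries. Csf1r, the growth factor receptor of macrophages, had 639, 585 and 367 CPM in KO_MCD, 144 and 1769 CPM in WT_MCD, and 513 and 59.1 in WT_NCD, without an order of groups. Pecam1, an adhesion protein of endothelium that leukocytes also make, had 119, 71.0 and 52.9 CPM in KO_MCD, 94.97 and 68.0 CPM in WT_MCD, and 173 and 222 in WT_NCD. Stab2, a scavenger receptor of liver sinusoidal endothelium, had at most 25.1 CPM, in WT_NCD replicate 1. Alb and Ahsg, plasma proteins made by hepatocytes, reached 28.3 and 17.3 CPM in WT_MCD replicate 2 and at most 3.79 CPM elsewhere. Vpreb3, of the early B cell list, had at most 1.31 CPM in any library.

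Igha, the IgA constant region, had 2.82, 4.62 and 29.0 CPM in KO_MCD, 0.604 and 147 CPM in WT_MCD, and 24.4 and 26.1 in WT_NCD. Its high library, WT_MCD replicate 2, was also the highest in Jchain and Sdc1. Spib, a factor of B cells and plasmacytoid dendritic cells named after its values were seen, had 87.8, 111 and 113 CPM in KO_MCD, 18.9 and 45.9 CPM in WT_MCD, and 0 and 3.18 in WT_NCD. Unlike Cd79a, it was not lower in KO_MCD replicate 3 than in the other KO_MCD libraries. Ighg2b counts stood mainly in WT_NCD replicate 1, with 252 CPM, against 46.7 CPM in WT_MCD replicate 2 and at most 3.44 CPM in the remaining libraries.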
